A study of Homo sapiens with 8 samples.

Results

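The genes described here are the ID genes and the feedback genes of bone morphogenetic protein (BMP) signalling: ID1, ID2, ID3, ID4, SMAD6, SMAD7, BMP2, BMP4, BMPR1A and BMPR2. They were taken as the probes that carry one of these symbols in the array's annotation and exceed an intensity of 20, the floor of the deposited values, on at least 2 of 8 arrays. Of the 10 genes, 9 had a named probe, and 11 of their 13 probes passed, which left 7 genes of the 12759 genes tested in all: ID1, ID2, ID3, SMAD6, SMAD7, BMP2 and BMPR2. ID4 and BMP4 had 1 probe each, at the floor of 20 on all 8 arrays, and BMPR1A had no named probe and was not analysed here. Expression was measured on Illumina arrays in MNNG/HOS, a chemically transformed derivative of the human osteosarcoma line HOS. The cells received DMSO (the solvent), JQ1 at 7.5 mM as labelled (whether millimolar was meant could not be checked), rapamycin at 12.5 nM, or both drugs at those doses, here called the combination, and each of the 4 groups has 2 arrays. JQ1 displaces BET bromodomain proteins from acetylated chromatin, and rapamycin inhibits the kinase complex mTORC1. The labels give no duration of treatment. They do not tell whether replicate arrays stand for separate cultures or 1 culture, and all p-values rest on the spread between such arrays, possibly a technical one. All results concern 1 cell line, and the cells received no labelled BMP ligand.

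BMP ligands such as BMP2 and BMP4 bind a pair of serine/threonine kinase receptors, a type I receptor such as BMPR1A and the type II receptor BMPR2, which phosphorylate SMAD1, SMAD5 and SMAD9. These enter the nucleus with SMAD4 and raise the transcription of the ID genes, whose products are helix-loop-helix proteins without a DNA-binding region that hold E proteins away from DNA. The same signal raises SMAD6 and SMAD7, inhibitory SMADs that block the receptors and so close a feedback loop, SMAD6 mainly on the BMP side and SMAD7 also on the TGF-beta side. In bone, BMP signalling drives osteoblast differentiation, and ID proteins are known for keeping cells in a less differentiated, dividing state.

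The 2 deposited tables name 6 of the 8 arrays differently. Each array of the non-normalized table matched 1 array of the value table at a Spearman rank correlation of 0.997 to 0.9981, against at most 0.9795 for any other, and the header gave 6 of them another group or replicate name. Groups follow the value table, which is tied to the sample records. The choice bears on these genes: on the non-normalized signals, the replicate SD of log2 ID1 was 0.262 under the value table's names and 0.962 under the header's names, and that of ID2 was 0.43 and 1.046. For SMAD6 it was 0.337 and 0.606, and for the median gene of all those tested it was 0.23 and 0.249. Under the header's names ID1 had a log2 change of -1.05 for JQ1 against DMSO (adjusted p = 0.795 from limma), opposite in sign to the value given below. ID3 in the combination had -1.27 (adjusted p = 0.0505) and SMAD6 in the combination -0.66 (adjusted p = 0.539). No member passed the test in any of the 6 comparisons of the design. Of all genes, 0.00784% passed for JQ1, 0.337% for rapamycin and 1.73% for the combination, each against DMSO.

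The proximal promoters of the 4 genes whose values carry the findings are shown to set the ID genes beside the feedback gene SMAD6. Each is the 250 bases before the annotated start in RefSeq's GRCh38.p14 annotation, on the gene's own strand. ID1 is at chr20:31605289-31606510, and its window is chr20:31605039-31605288 on the plus strand. ID2 is at chr2:8682056-8684461, with the window chr2:8681806-8682055 on the plus strand. ID3 is at chr1:23557926-23559501, with the window chr1:23559502-23559751 on the minus strand. SMAD6 is at chr15:66702236-66782849, with the window chr15:66701986-66702235 on the plus strand. Capitals mark matches to the TATA box TATAAA in ID1 and to the SMAD palindrome GTCTAGAC in SMAD6.
ID1: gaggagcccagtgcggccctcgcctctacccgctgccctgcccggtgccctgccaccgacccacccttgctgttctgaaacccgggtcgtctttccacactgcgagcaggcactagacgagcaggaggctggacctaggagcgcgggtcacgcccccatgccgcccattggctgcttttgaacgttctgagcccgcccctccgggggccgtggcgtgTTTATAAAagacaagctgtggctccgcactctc
ID2: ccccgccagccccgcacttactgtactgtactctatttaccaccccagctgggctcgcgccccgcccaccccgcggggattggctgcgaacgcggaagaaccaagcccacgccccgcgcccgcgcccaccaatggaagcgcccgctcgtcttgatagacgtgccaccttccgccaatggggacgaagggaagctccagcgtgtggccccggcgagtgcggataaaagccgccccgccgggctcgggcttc
ID3: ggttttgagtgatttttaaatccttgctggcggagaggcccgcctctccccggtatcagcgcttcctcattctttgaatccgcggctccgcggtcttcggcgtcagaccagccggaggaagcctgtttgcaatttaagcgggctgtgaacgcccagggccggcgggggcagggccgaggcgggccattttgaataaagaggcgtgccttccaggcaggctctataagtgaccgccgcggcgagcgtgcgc
SMAD6: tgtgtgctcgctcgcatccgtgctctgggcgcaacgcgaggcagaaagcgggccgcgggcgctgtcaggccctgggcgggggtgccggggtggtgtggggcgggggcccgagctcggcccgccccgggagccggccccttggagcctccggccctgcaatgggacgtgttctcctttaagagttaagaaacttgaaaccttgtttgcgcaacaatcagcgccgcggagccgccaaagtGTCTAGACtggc
The motifs were searched on both strands: GTCTAGAC, the GC-rich SMAD site GGCGCC, the E-box CACGTG and TATAAA. The SMAD6 window holds GTCTAGAC, beginning 12 bases before the start, and 64 of 35116 such windows over all genes hold it (0.182%). The ID1 window holds a pair of overlapping TATAAA matches, 1 on each strand, a motif found in 10.7% of windows. None of these motifs is in the ID2 or ID3 window. GGCGCC occurs in 16.4% of windows and CACGTG in 6.34%. These matches describe the letters of the windows only. Of the 10 genes, 9 have an entry in the promoter table used.

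The ID genes did not all follow the same order over the 4 groups. ID1 was higher in both arrays with JQ1 alone and in both with the combination than in any array without JQ1. ID3 was lower in all 4 arrays with rapamycin than in any array without it, whether or not JQ1 was present. SMAD6 was too, though its change in the combination against JQ1 alone was small (log2 -0.18). Values were tested on the log2 scale with limma over all 12759 genes, a gene was called at a Benjamini-Hochberg adjusted p under 0.05, and SE is the standard error of a log2 change. For JQ1 against DMSO 1 of the 7 genes was called, ID1 (higher), beside 2.83% of all genes called and 1.06% called higher. For rapamycin against DMSO none was called, beside 0.0235% of all genes (3 genes), and limma gave an unadjusted p under 0.05 for 4 of the 7 genes and for 9.89% of all genes. For the combination against DMSO 2 were called, ID3 and SMAD6 (both lower), beside 7.18% of all genes called and 4.25% called lower. For the combination against rapamycin 1 was called, ID1 (higher), beside 2.62% of all genes called and 0.941% called higher. For the combination against JQ1 none was called, beside 0% of all genes, and 2 of the 7 had an unadjusted p under 0.05, beside 8.28% of all genes.

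Replicate number 1 and replicate number 2 pair the arrays across groups, so the model with the replicate number as a block is given where it changes a call. In that model 3 of the 7 genes were called for JQ1 (ID1 and ID2 higher, SMAD6 lower), beside 11.2% of all genes called, 4.48% higher and 6.7% lower. For rapamycin 2 were called (ID3 and SMAD6 lower), beside 0.345% of all genes called (44 genes) and 0.11% of all genes called lower. For the combination the same 2 were called as without the block, ID3 and SMAD6, beside 18.9% of all genes called and 11.2% called lower, and for the combination against rapamycin 2 were called (ID1 and ID2 higher), beside 11.3% of all genes called and 4.27% called higher. A fit without 1 array leaves a group with 1 array. For JQ1 and for the combination, each against DMSO, such fits called a smaller share of all genes too. A lost call is thus not particular to these genes. Arrays were left out in turn in the model without the block. There, leaving out any 1 of the 8 arrays left no member called in the 6 comparisons of the design.

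**Figure D1:**
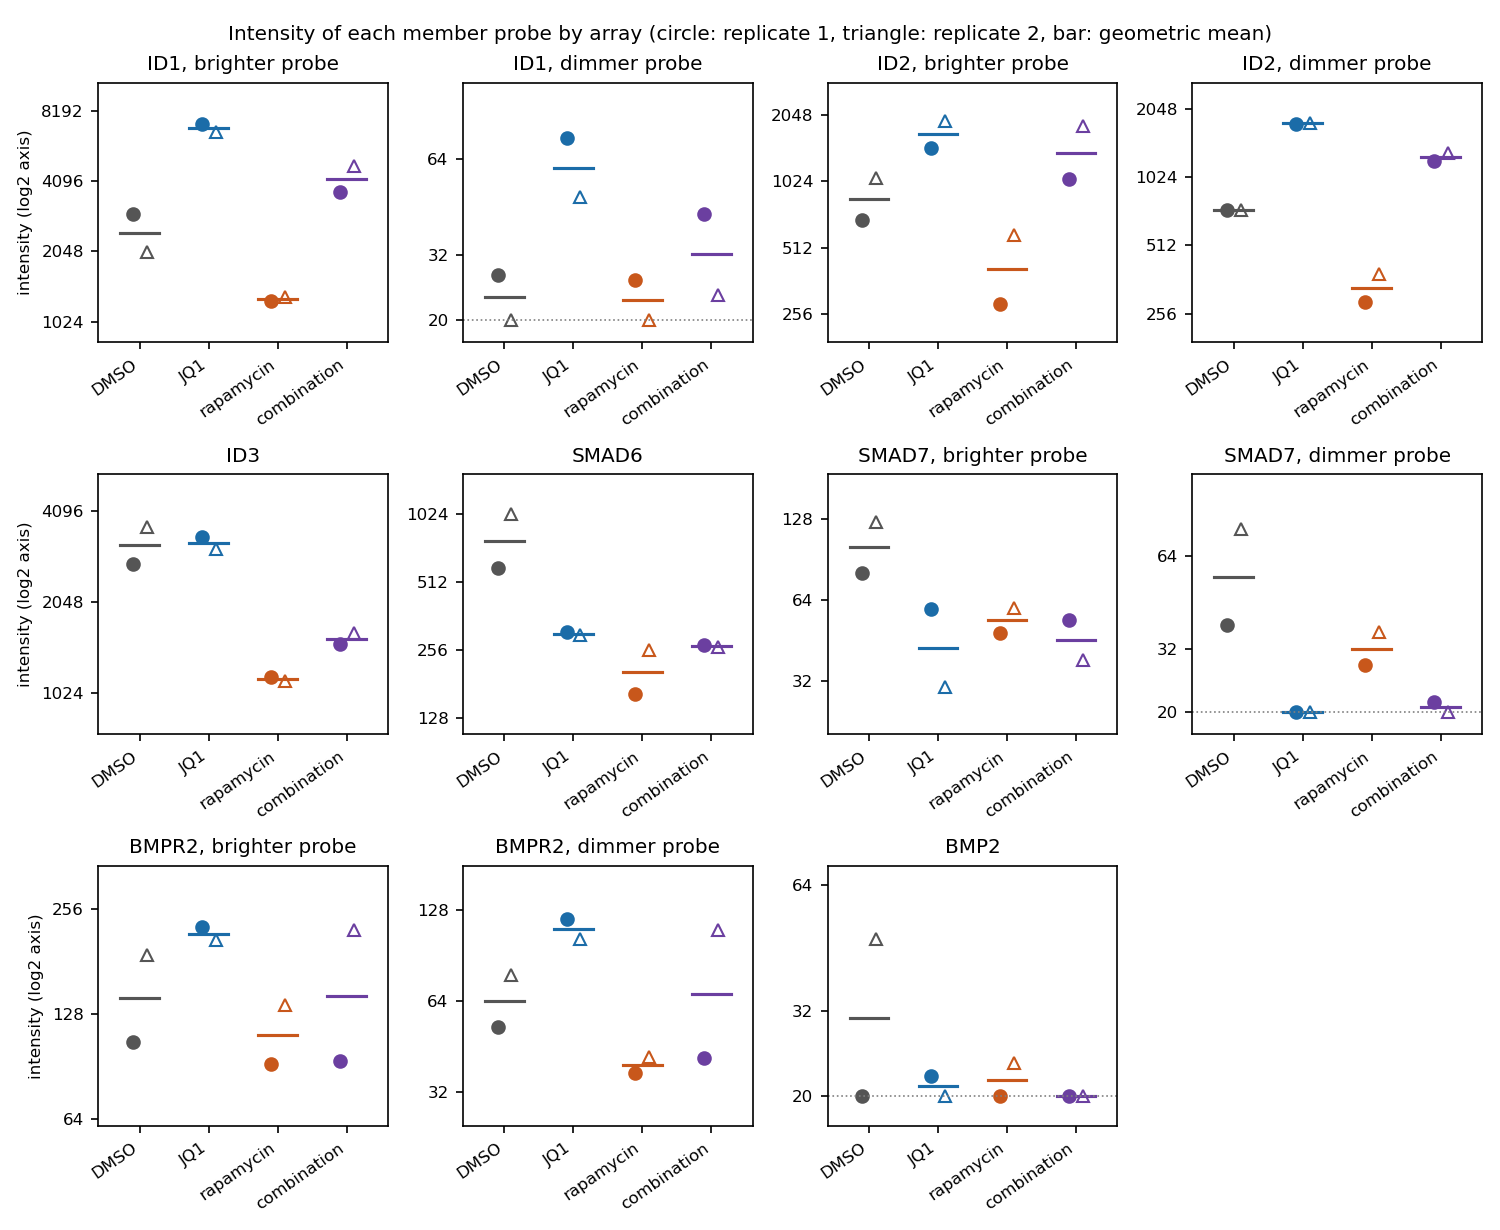
Intensity (log2 axis) of the 11 probes of the 7 tested genes on the 8 arrays, by group; circles are replicate 1, triangles replicate 2, bars the geometric mean of the 2 arrays, and the dotted line the floor of 20. ID1 stands at 6659.5 and 7220.5 with JQ1 and at 1253 and 1303 with rapamycin, and ID3 is at most 1615 on all 4 arrays with rapamycin.

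ID1, which binds E proteins and is a direct SMAD target, was measured at 2972 and 2045 in DMSO, 7220.5 and 6659.5 in JQ1, 1253 and 1303 in rapamycin, and 3675 and 4769 in the combination (replicates 1 and 2). The means were 2508 ± 655.5, 6940 ± 397, 1278.5 ± 35.3 and 4222 ± 774 (SD, n = 2). In rising order the groups stood as rapamycin, DMSO, combination and JQ1, and no 2 of them overlapped. JQ1 raised ID1 2.81-fold over DMSO (log2 1.49, SE 0.25, limma adjusted p = 0.0317), and adding JQ1 to rapamycin raised it 3.28-fold over rapamycin alone (log2 1.71, SE 0.25, adjusted p = 0.0244). Neighbours in that order did not pass the test: the log2 change was -0.95 for rapamycin against DMSO (SE 0.25, adjusted p = 0.287), 0.76 for the combination against DMSO (adjusted p = 0.117) and -0.73 for the combination against JQ1 (adjusted p = 0.512). Without each array in turn the JQ1 change lay between 1.22 and 1.76, with adjusted p-values of 0.0591 to 0.176. The second ID1 probe was dim, at 27.8 and the floor of 20 in DMSO, 74.5 and 48.7 in JQ1, 26.7 and 20 in rapamycin, and 43 and 24 in the combination. It ran the same way for JQ1 (log2 1.35, adjusted p = 0.135 over 23860 probes) but showed no fall with rapamycin (-0.03), where 1 of the 2 arrays of each of these groups lay at the floor.

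ID2, another ID family member, has 2 bright probes. The brighter one read 681 and 1061 in DMSO, 1460 and 1923 in JQ1, 285 and 586 in rapamycin, and 1045 and 1822 in the combination. Replicate 2 was the higher array in every group, and the groups with JQ1 stood above rapamycin alone without overlap. The other probe had closer replicates, at 735 and 736 in DMSO, 1755 and 1777 in JQ1, 288 and 385 in rapamycin, and 1207 and 1306 in the combination. Its groups did not overlap and stood in the order found for ID1. On the brighter probe, ID2 had a log2 change of 0.98 with JQ1 (SE 0.44, adjusted p = 0.309, 0.0284 with the replicate block) and 1.76 when JQ1 was added to rapamycin (adjusted p = 0.0882, 0.00586 with the block). On the other probe both passed in the fit over all probes without a block: 1.26 with JQ1 (SE 0.2, adjusted p = 0.0381, 1.74% of all probes called) and 1.92 on adding JQ1 to rapamycin (adjusted p = 0.0191, 1.48% of all probes called). Rapamycin alone gave log2 changes of -1.06 and -1.14 on the 2 probes (adjusted p = 0.499 and 0.223).

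ID3, the third family member, read 2749 and 3623 in DMSO, 3360 and 3069 in JQ1, 1162 and 1124 in rapamycin, and 1486 and 1615 in the combination. The DMSO and JQ1 arrays overlapped, and all 4 rapamycin-treated arrays lay below them. JQ1 alone left ID3 at a log2 change of 0.03, with a 95% interval of -0.46 to 0.52 (adjusted p = 0.99). Non-normalized signals gave -0.23, so the sign of this change is not settled. Rapamycin alone gave -1.47 (SE 0.21, adjusted p = 0.128, 0.0462 with the block). In the combination ID3 fell to 0.491 of its DMSO level (log2 -1.03, SE 0.21, adjusted p = 0.0347), and without each array in turn the change lay between -1.23 and -0.83, with adjusted p-values of 0.0612 to 0.131. The change of the combination against JQ1 was -1.05 (adjusted p = 0.361), and against rapamycin 0.44 (adjusted p = 0.327).

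The log ratio of ID1 to ID3, which sets each array against itself, was 1.27 ± 0.214 on the 4 arrays with JQ1 and -0.097 ± 0.487 on the 4 without (SD, n = 4). The ratio was higher with JQ1 in all 4 pairs of arrays of the same replicate number and the same rapamycin state. The difference of 1.37 had p = 0.125 in a two-sided exact permutation test that swaps JQ1 within those pairs (16 arrangements), the smallest p this design allows, so it cannot reach 0.05, and 0.375 after adjustment over the 6 ratio tests made. For ID2 over ID3 the difference was 1.135, also in 4 of 4 pairs (exact p = 0.125, adjusted 0.375). The ratios were chosen after the values had been seen. ID1 and ID2 were the 2 members whose JQ1 arrays both lay above and whose rapamycin arrays both lay below both DMSO arrays, an order found in 365 of 12759 genes (2.86%). JQ1 and rapamycin are compared with the same DMSO arrays, so this order is a description of 6 arrays.

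SMAD6, the inhibitory SMAD that acts mainly against BMP receptors, read 589 and 1023 in DMSO, 306 and 297 in JQ1, 162 and 256 in rapamycin, and 269.6 and 263 in the combination. All 6 treated arrays lay below both DMSO arrays. Taken singly, 23.1% (JQ1), 18.4% (rapamycin) and 26.1% (combination) of all genes lay lower without overlap, each against the same DMSO arrays. The DMSO replicates differed by -0.8 on the log2 scale (replicate 1 minus replicate 2), more than any JQ1 array differed from a combination array. SMAD6 fell to 0.343 of its DMSO level in the combination (log2 -1.54, SE 0.33, adjusted p = 0.0386). With each array left out in turn the change lay between -1.94 and -1.15, with adjusted p-values of 0.0633 to 0.153. The change was -1.93 for rapamycin alone (adjusted p = 0.167, 0.0486 with the block) and -1.36 for JQ1 alone (adjusted p = 0.0823, 0.0221 with the block). For the combination against JQ1 it was -0.18 (SE 0.33, adjusted p = 0.969), and against rapamycin 0.38 (adjusted p = 0.621).

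SMAD7, at chr18:48919853-48950965, encodes the inhibitory SMAD shared with the TGF-beta side. Its brighter probe read 80.5 and 125 in DMSO, 59.3 and 30.6 in JQ1, 48.2 and 60.1 in rapamycin, and 53.9 and 38.4 in the combination. Every treated array lay below both DMSO arrays, while the treated groups overlapped each other. The shares of all genes with such an order in each comparison are those given for SMAD6. The log2 changes were -1.24 for JQ1, -0.9 for rapamycin and -1.14 for the combination, and none passed the test (adjusted p = 0.148, 0.515 and 0.13). The dimmer probe read 38.3 and 78.2 in DMSO, 28.4 and 36.2 in rapamycin, and 21.6 and 20 in the combination. Both JQ1 arrays lay at the floor, at least 2.74-fold below DMSO, with an adjusted p of 0.0983 over all probes.

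The ligand BMP2, at chr20:6767686-6780246, was near the limit of measurement: 20 and 47.4 in DMSO, 22.4 and 20 in JQ1, 20 and 24 in rapamycin, and 20 and 20 in the combination. A single DMSO array carried its level, so the bound of at least 1.54-fold lower in the combination (adjusted p = 0.397) rests on that array. Without it, DMSO lay at the floor too and the change was 0. BMP4, at chr14:53949736-53956891, and ID4, at chr6:19837370-19842197, gave no level in any group. The type II receptor BMPR2, at chr2:202376327-202567749, read 107 and 190 in DMSO, 227 and 208 in JQ1, 91.8 and 136 in rapamycin, and 93.6 and 223 in the combination. The JQ1 arrays lay above both DMSO arrays, and the combination arrays were the farthest apart of any group. Its log2 changes were 0.61, -0.35 and 0.02 (adjusted p = 0.591, 0.901 and 1). The dimmer BMPR2 probe gave 0.79, -0.7 and 0.08.

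**Figure D2:**
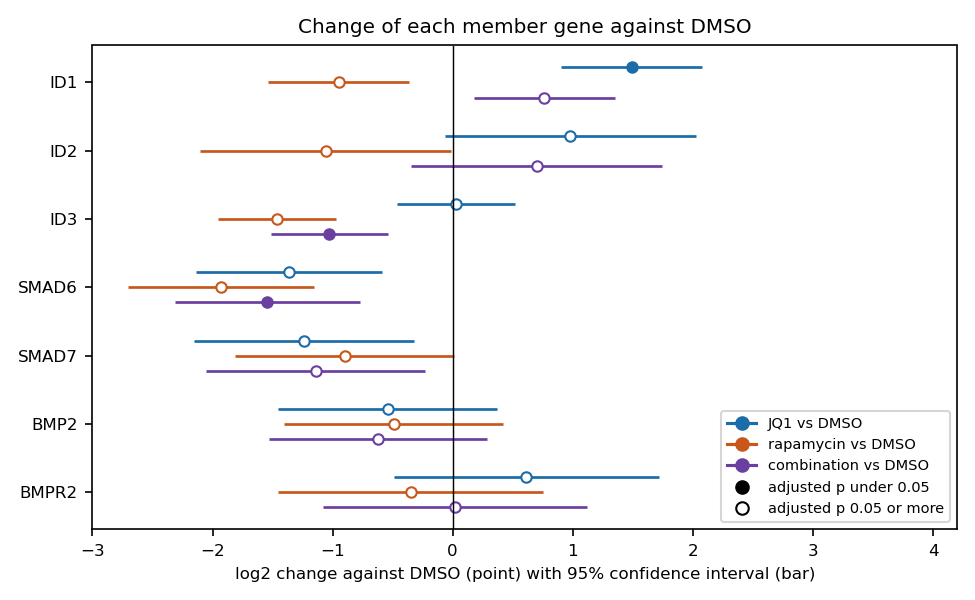
Log2 change against DMSO of the 7 tested genes for JQ1, rapamycin and the combination, with 95% confidence intervals from limma (all 8 arrays); filled markers have an adjusted p under 0.05. The filled markers are ID1 with JQ1 (1.49) and ID3 (-1.03) and SMAD6 (-1.54) with the combination.

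Counted over the 7 genes, the arrays of JQ1 and DMSO did not overlap for 3 genes that were higher (ID1, ID2 and BMPR2; 20.2% of all genes) and 2 that were lower (SMAD6 and SMAD7; 23.1%). With rapamycin 5 were lower without overlap (ID1, ID2, ID3, SMAD6 and SMAD7; 18.4% of all genes) and none was higher (18% of all genes). With the combination 1 was higher (ID1; 22.8%) and 3 were lower (ID3, SMAD6 and SMAD7; 26.1%). All 7 fitted changes with rapamycin were negative, with a median of -0.948 beside 0 for all genes, and the median was 0.025 with JQ1 (0 for all genes) and -0.622 with the combination (-0.008 for all genes). Without DMSO replicate 2 the rapamycin changes of BMP2 (0.13) and BMPR2 (0.0635) were positive. When the 4 arrays with rapamycin were set against the 4 without, ID3 (1124 to 1615 against 2749 to 3623) and SMAD6 (162 to 269.6 against 297 to 1023) lay wholly lower, as did 2.7% of all genes. When the 4 with JQ1 were set against the 4 without, ID1 (3675 to 7220.5 against 1253 to 2972) lay wholly higher, as did 6.98% of all genes.

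Averaged over both states of the other drug, a contrast added after the data had been seen, JQ1 raised ID1 by 1.6 on the log2 scale (SE 0.18, adjusted p = 0.00367) and ID2 by 1.37 (SE 0.31, adjusted p = 0.036), beside 11.7% of all genes called and 4.37% called higher. The ID1 call held with each of the 8 arrays left out (1.47 to 1.74, adjusted p = 0.0156 to 0.0291), and the ID2 call was lost with any 1 left out (1.11 to 1.63, adjusted p = 0.0523 to 0.136). These ID2 values are those of its brighter probe. In the fit over all probes the other ID2 probe had 1.59 (adjusted p = 0.00306), beside 7.7% of all probes called. The dimmer ID1 probe had 0.91 (adjusted p = 0.0873). SMAD7 had -1.04 on its dimmer probe (adjusted p = 0.0479), where both JQ1 arrays lay at the floor. Its brighter probe was not called (-0.74, adjusted p = 0.139). ID3 had 0.23 (95% interval -0.11 to 0.58, adjusted p = 0.383). The average rapamycin effect was -1.26 for ID3 (SE 0.15, adjusted p = 0.0517), -0.84 for ID1 (adjusted p = 0.122) and -1.05 for SMAD6 (adjusted p = 0.134). No member was called for it without the block, beside 0.0941% of all genes, and limma gave an unadjusted p under 0.05 for 3 of the 7 and 13.9% of all genes. With the replicate block these 3 genes were called lower (adjusted p = 0.0181, 0.047 and 0.0359), beside 4.02% of all genes called and 1.83% called lower.

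The interaction asks whether the combination differs from the sum of the single-drug log2 changes. No member was called, beside 0% of all genes, and 1 of the 7 had an unadjusted p under 0.05, beside 3.51% of all genes. That member was SMAD6. The single-drug changes of SMAD6 summed to -3.29, while the combination gave -1.54, a difference of 1.75 (95% interval 0.66 to 2.84, unadjusted p = 0.00687, adjusted p = 0.999, 0.539 with the block). For ID1 the sum was 0.54 and the combination 0.76, a difference of 0.22 (95% interval -0.61 to 1.05). For ID3 the sum was -1.44 and the combination -1.03, a difference of 0.41 (-0.28 to 1.11). ID2 had 0.78 (-0.7 to 2.26) and SMAD7 0.99 (-0.3 to 2.29), intervals that also contain 0.

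**Figure D3:**
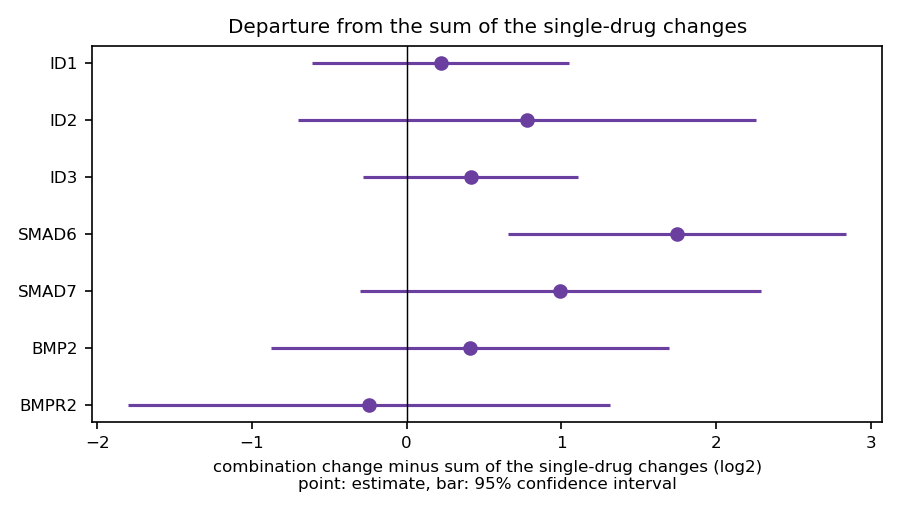
Log2 change of the combination minus the sum of the single-drug log2 changes for the 7 tested genes, with 95% confidence intervals from limma; 0 means that the changes add. The interval of SMAD6 (0.66 to 2.84) lies above 0, the other 6 contain it, and no adjusted p is under 0.05.

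Beyond these 10 genes, lists covering the rest of the pathway held 91 genes, of which 64 were tested. With JQ1 3 of the 64 were called lower (GREM1, RUNX2 and SMAD3) and none higher, beside 2.83% of all genes called, and with rapamycin none was called, beside 0.0235%. With the combination 3 were called higher (JUNB, HEY2 and CCN2) and 5 lower (GREM1, RUNX2, SMAD3, ENG and TGIF2), to be read beside the 7.18% of all genes called there. On adding JQ1 to rapamycin 3 were called higher (BAMBI, MSX2 and HEY2) and 2 lower (GREM1 and RUNX2), beside 2.62%. Averaged over both states of rapamycin, JQ1 gave another balance, 9 called higher and 6 lower, beside 11.7% of all genes called. The medians of the 64 log2 changes were -0.015, -0.169 and -0.117, beside 0, 0 and -0.008 for all genes. With the replicate block 5 were higher and 7 lower for JQ1 (11.2% of all genes called), none was called for rapamycin (0.345%), and 6 were higher and 13 lower for the combination (18.9%). The genes named below are those called without the block, and 2 for each list with no call in the comparisons of the design.

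Among 16 extracellular antagonists and decoys, 11 were tested. GREM1, a secreted protein that binds BMP ligands, read 189 and 155 in DMSO, 30.6 and 34.6 in JQ1, 114 and 74.6 in rapamycin, and 23.8 and 32.4 in the combination. The 4 arrays with JQ1 lay below the 4 without, an order found in 9.91% of all genes. Its log2 change was -2.39 with JQ1 (SE 0.28, adjusted p = 0.0136) and -2.62 with the combination (adjusted p = 0.00726), against -0.89 with rapamycin alone (adjusted p = 0.352). The change with JQ1 was called in 4 of the 8 fits without 1 array, those that left out a rapamycin or a combination array, and lay between -2.54 and -2.25 in all 8. The combination call was lost without DMSO replicate 1, DMSO replicate 2 or combination replicate 1 (-2.84 to -2.4 over the 8). BAMBI, a pseudoreceptor without a kinase that dampens the pathway and is itself a BMP and TGF-beta target, read 696 and 777 in DMSO, 1466 and 1194.5 in JQ1, 323 and 350 in rapamycin, and 1770.5 and 1160 in the combination. Its JQ1 and combination arrays stood above DMSO and its rapamycin arrays below, as for ID1. Adding JQ1 to rapamycin raised it by 2.09 on the log2 scale (adjusted p = 0.0163), a call lost with any 1 array left out (1.79 to 2.4). Its changes against DMSO were 0.85 for JQ1 (adjusted p = 0.138), -1.13 for rapamycin (0.237) and 0.96 for the combination (0.0707, 0.0314 with the block).

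Of 15 other BMP target genes 12 were tested. MSX2, a homeobox factor of bone and limb development, read 74.6 and 56.9 in DMSO, 180 and 144 in JQ1, 37.3 and 51.8 in rapamycin, and 129 and 149 in the combination. It followed the order of BAMBI, with log2 changes of 1.3 for JQ1 (adjusted p = 0.0524, 0.0229 with the block), -0.57 for rapamycin (0.545) and 1.66 on adding JQ1 to rapamycin (0.0306, lost with any 1 array left out). JUNB, an AP-1 subunit, gave 0.81 with the combination (adjusted p = 0.0484, lost with any 1 array left out). RUNX2, the master factor of osteoblast differentiation, moved the other way. It read 96.5 and 111 in DMSO and 95.7 and 75.5 in rapamycin. On all 4 arrays with JQ1 it lay at the floor of 20, at least 5.17-fold below DMSO (adjusted p = 0.00881 with JQ1 and 0.00403 with the combination). Arrays at the floor show no spread, so these p-values may be too low. The JQ1 call was lost when a DMSO or a JQ1 array was left out, and the combination call without combination replicate 1 (-2.47 to -2.27 over the 8 fits, for both). The mean over its probes gave -1.07 with JQ1 (adjusted p = 0.088), since a second RUNX2 probe changed by 0.23 (adjusted p = 0.908).

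Of 11 receptors and co-receptors 7 were tested. ENG, endoglin, an accessory receptor for BMP and TGF-beta ligands, read 119 and 53.9 in DMSO and 50.1 and 43.3 in JQ1. It lay at 20 on all 4 arrays with rapamycin, at least 4-fold below DMSO. Those arrays show no spread, so the p-values of ENG may be too low. The combination was called (adjusted p = 0.0241, held without DMSO replicate 2 and lost without each other array) and rapamycin alone was not (adjusted p = 0.183). Of the signal-carrying SMADs, 3 of 4 were tested and none was called. SMAD5 read 861 and 804 in DMSO, 522 and 566 in JQ1, 704 and 658 in rapamycin, and 555 and 512 in the combination. Its change in the combination was -0.64 (adjusted p = 0.0827, 0.0395 with the block). SMAD1 stood between the floor and 34.7 on the 8 arrays, with a change of 0.24 for JQ1 (adjusted p = 0.754).

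Of 13 ligands 5 were tested, BMP2 among them, and none was called. BMP6 read 32.7 and 25.3 in DMSO, 51.6 and 51.4 in JQ1, 113 and 51.4 in rapamycin, and 153 and 30.7 in the combination. Its replicates lay far apart in rapamycin and in the combination, and the combination arrays enclosed those of every other group except DMSO replicate 2. Its change with rapamycin was 1.41 (adjusted p = 0.612). Of 10 SMAD ubiquitin ligases and corepressors 9 were tested. TGIF2, a corepressor that binds SMADs, read 382 and 288 in DMSO, 114 and 124 in JQ1, 156 and 220 in rapamycin, and 44.5 and 76.5 in the combination. Its change in the combination was -2.51 (adjusted p = 0.0111), called in 5 of the 8 fits without 1 array and lost without DMSO replicate 1, DMSO replicate 2 or combination replicate 1.

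Of 9 E proteins and helix-loop-helix partners, the proteins that ID proteins bind or act beside, 7 were tested, and 1 was called for the combination. HEY2, a Notch-regulated repressor that BMP can also raise, read 28.4 and 38.3 in DMSO, 114 and 113 in JQ1, 40.2 and 21.3 in rapamycin, and 174 and 105 in the combination (log2 2.03, adjusted p = 0.0271, held without either rapamycin array and lost without each other array). Of 17 genes of the TGF-beta branch 12 were tested. SMAD3, which carries the TGF-beta signal, read 387 and 485 in DMSO, 167 and 192 in JQ1, 278 and 295 in rapamycin, and 201 and 240 in the combination. It fell by 1.27 on the log2 scale with JQ1 (adjusted p = 0.0317) and by 0.98 with the combination (adjusted p = 0.0409), both lost with any 1 array left out. CCN2, a matricellular protein raised by TGF-beta, moved the other way, from 486 and 347 in DMSO to 3978.5 and 2043 in JQ1 and 8080 and 1654 in the combination. Its combination change of 3.15 (adjusted p = 0.0484) was held without combination replicate 2 and lost without each other array, ranging from 2.01 to 4.3. It was also lost on the mean over probes (3.02, adjusted p = 0.0588), and the second CCN2 probe gave 2.88 (adjusted p = 0.0965 over all probes).

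For the JQ1 effect averaged over both rapamycin states, the 9 genes called higher were BAMBI, MSX2, HEY2, CCN2, JUNB, RGMB, SKI, MSX1 and TBX3, and the 6 called lower were GREM1, RUNX2, TGIF2, SMAD3, HEY1 and TGFBR2. GREM1 (-2.06), RUNX2 (-2.23), TGIF2 (-1.57), BAMBI (1.47), MSX2 (1.48) and HEY2 (1.99) stayed called with each of the 8 arrays left out, and each of the other 9 was called in at most 3 of those 8 fits. TGFBR2, the type II TGF-beta receptor, read 1395 and 2241 in DMSO, 503 and 767 in JQ1, 1463.5 and 2079 in rapamycin, and 547 and 786 in the combination. Its 4 arrays with JQ1 lay below the 4 without, as did those of 9.91% of all genes (log2 -1.46, adjusted p = 0.0152). HEY1, a repressor related to HEY2, had a change of -1.73 (adjusted p = 0.0184), opposite in sign to HEY2. The homeobox factor MSX1 had 0.84 (adjusted p = 0.0473), the BMP co-receptor RGMB 0.93 (adjusted p = 0.0461) and the SMAD corepressor SKI 0.83 (adjusted p = 0.0401). The T-box factor TBX3 had 1.11 (adjusted p = 0.0296), while a second TBX3 probe gave -0.25 (adjusted p = 0.665 over all probes). Likewise a second RUNX2 probe gave -0.23 (adjusted p = 0.761 over all probes), and the first lay at the floor on all 4 arrays with JQ1.

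**Figure D4:**
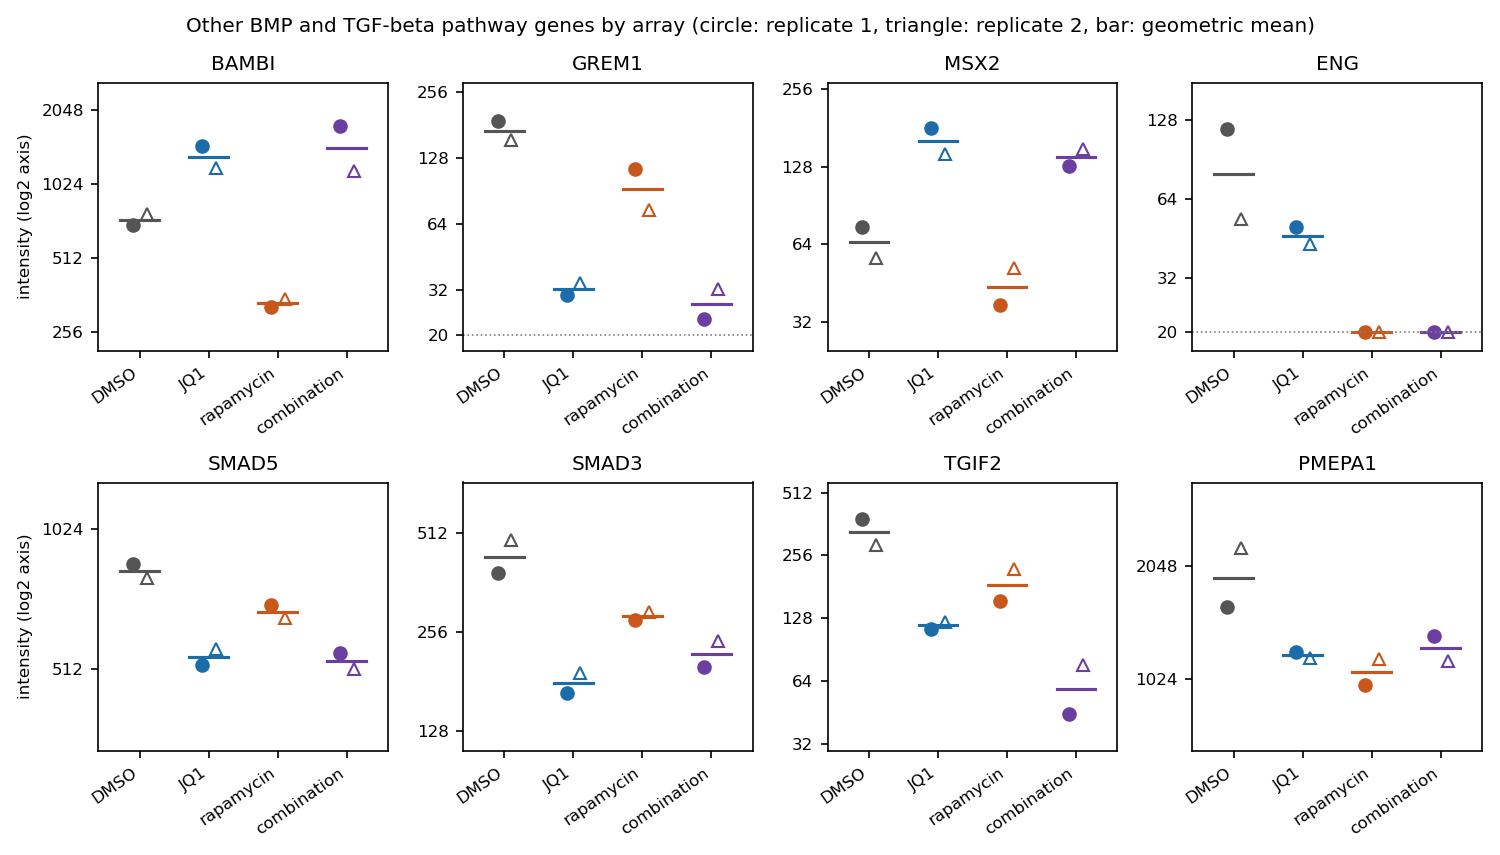
Intensity (log2 axis) of 8 further genes of the pathway on the 8 arrays, by group; circles are replicate 1, triangles replicate 2, bars the geometric mean of the 2 arrays, and the dotted line the floor of 20. GREM1 is at or below 34.6 on the 4 arrays with JQ1, and ENG is at the floor on the 4 arrays with rapamycin.

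Outside the 10 genes, those whose log2 values followed ID1 most closely over the 8 arrays were TTC38 (Pearson r = 0.992), LRCH4 (0.985) and CDK5R1 (0.98). Their log2 changes with JQ1 were 0.7, 1.18 and 1.33, with rapamycin -0.31, -0.37 and -0.66, and with the combination 0.34, 0.69 and 0.59, the same order of groups as for ID1. Closest to ID3 were CLDN11 (0.972), MTCL1 (0.952) and ETNK2 (0.951), which changed by -0.76, -0.77 and -0.82 with rapamycin and by -0.02, -0.09 and 0.12 with JQ1. Closest to SMAD6 were PMEPA1 (0.97), GSAP (0.949) and PLEKHO1 (0.948), with changes of -0.63 to -0.96 under all 3 treatments. PMEPA1, a TGF-beta-induced inhibitor of SMAD signalling, is also on the TGF-beta list, and its probes disagree for the combination. The brightest, used for the likeness, gave -0.63 (adjusted p = 0.167), while the others gave -1.55 (adjusted p = 0.0203 over all probes) and -1.05 (adjusted p = 0.0638), and the mean over probes gave -1.07 (adjusted p = 0.0268). The 8 arrays are 4 pairs of replicates, so these are descriptions of the most similar of 12759 genes.

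The 8 arrays had mean intensities of 455.5 to 481.6, with 55.7% to 58.6% of probes at the floor, and replicates of a group correlated at 0.974 to 0.978. The cell type label was read against its markers: 7 of 10 mesenchymal and osteosarcoma markers passed the filter, with summed intensities of 35460 to 42470 over the 8 arrays, and VIM was the main part of that sum. Among the other mesenchymal markers, CDH11 had log2 changes of -1.58 with the combination (adjusted p = 0.0259), -1.28 with rapamycin (adjusted p = 0.237) and -1.06 with JQ1 (adjusted p = 0.11, 0.0353 with the block). SPARC had 1.06 with JQ1 (adjusted p = 0.138, 0.0228 with the block) and 0.76 with the combination (adjusted p = 0.21, 0.0441 with the block). Of 6 endothelial markers none passed the filter. Of 8 haematopoietic markers 3 did (CD14, CD68 and LYZ, but not PTPRC), with sums of 861.9 to 1863 that overlapped between groups. CD68 was the main part of that sum. CD14, a monocyte marker, lay lower on the 4 arrays with rapamycin than on the 4 without, as ID3 and SMAD6 did. It read 281 and 476 in DMSO, 171 and 308 in JQ1, 51.3 and 164 in rapamycin, and 28.8 and 145 in the combination. Its log2 change was -1.99 with rapamycin (adjusted p = 0.509) and -2.5 with the combination (adjusted p = 0.132, 0.00704 with the block), and its part in the results was not tested. Of 7 epithelial markers 3 did (EPCAM, KRT8 and KRT18), with sums of 1446 to 1702 in DMSO, 1593 to 1686 in JQ1, 1282 to 1329 in rapamycin and 1667 to 1761 in the combination, and the part of this shift in the results was not tested. Of 8 genes known to respond to BET inhibitors, listed without regard to the direction of that response, all passed. Their sums were 3163 to 3808 in DMSO, 10520 to 14650 in JQ1, 4428 to 5478 in rapamycin and 14020 to 18330 in the combination. BRD2 and H2BC5 were the main part of these sums. With JQ1 4 of the 8 were called higher (SERPINI1, H2BC5, H4C14 and BRD2), beside 1.06% of all genes. Not called without the block were HEXIM1 (log2 1.97, adjusted p = 0.117, 0.0277 with the block), H1-2 (0.93, 0.251), H2BC4 (0.87, 0.386) and MYC (0.97, 0.53). MYC had 2.09 with the combination (adjusted p = 0.105, 0.0231 with the block). In bulk RNA, fewer cells of a type and less RNA per cell cannot be told apart.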

How the data were processed

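Total RNA of MNNG/HOS cells was extracted, labelled with biotin and hybridised to arrays, per the labels' protocols. The design text names Affymetrix, but both deposited tables carry Illumina probe identifiers. Both hold linear intensity. The value table's intensity was normalized and floored at 20 by the authors. Neither the normalization nor its software is given in the sources used here. The non-normalized intensity, deposited without detection p-values or control probes, had 28.3% to 30.3% of values per array below 0, so a background had been subtracted. It served as an alternative, as log2 after raising values below 0 to 0 and adding 50, quantile normalized.

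The value table was log2-transformed. Of 47304 probes 30102 carried 1 symbol, 8 several and 17194 none. A probe entered if above 20 on at least 2 of 8 arrays (23860 probes), and the brightest stood for each gene (12759 genes, 3326 with more than 1 probe). limma 3.58.1 in R 4.3.3 fitted a mean per group to all 8 arrays (4 residual and 2.92 prior degrees of freedom), with Benjamini-Hochberg adjustment within a comparison. Member probes were also tested over all filtered probes. A fold against a group at the floor is a bound. Such a group shows no spread, which can make the p-values of that gene too low. The 2 arrays per group limit the precision. The procedure was run on simulated data with independent noise for each array. The simulation had no floor and no effect of the replicate number, so it does not cover these features of the data.

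Replicate numbers come from the titles. Deviations from the group means of same-numbered arrays correlated at 0.423 to 0.549 for all 6 pairs of groups, so the numbers pair the arrays and the block is printed where it changes a call.

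Members, pathway lists and markers were chosen with earlier results of these data known. Named genes are the members, the 3 genes most correlated with ID1, ID3 and SMAD6, and list genes called in any comparison of the main model, or the 2 largest changes where a list had none. Alternatives were the replicate block, filters on dim probes, the mean over probes, median centring, a trended robust variance, the non-normalized signals under either set of array names, only the arrays compared, and each array left out. The averaged contrasts were added after seeing the data. Promoter sequences and gene coordinates are RefSeq's (GRCh38.p14). BMPR1A had no named probe here.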

Additional observations from a re-analysis of the deposited data

Results flagged for a closer look

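The interaction of JQ1 and rapamycin on SMAD6 was 1.75 on the log2 scale. It stood out because the fitted JQ1 changes had opposite signs in the absence and presence of rapamycin. Both arrays with JQ1 alone (306 and 297) lay below both DMSO arrays (589 and 1023), as for 23.1% of all genes. Both combination arrays (269.6 and 263) lay above both rapamycin arrays (162 and 256), as for 19.6% of all genes. The nearest of these, 263 and 256, differed little. The change from adding JQ1 to rapamycin was 0.38 (limma adjusted p = 0.621), and the interaction itself had an adjusted p of 0.999 over 12759 genes. In the fits without 1 array the interaction lay between 1.35 and 2.15, and none of them was called.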

How the results depend on the processing

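Under the model with the replicate block the members called rose from 1 to 3 for JQ1, from 0 to 2 for rapamycin, from 1 to 2 for the combination against rapamycin, and from 0 to 3 for the average rapamycin effect; the counts of the other comparisons stayed as they were. With no filter on dim probes, with only the arrays compared and under the header's array names, the counts were 0 for JQ1 (1 in the main model), 0 for the combination (2) and 0 for the combination against rapamycin (1). In these settings, in that order, 0.724%, 0% and 0.00784% of all genes were called for JQ1. For the combination against DMSO the shares were 1.18%, 0% and 1.73%. The non-normalized signals called 1 member for rapamycin, beside 0.11% of all genes, and 2 for the combination against rapamycin. Fits without 1 array called a smaller share of all genes than the main model for JQ1 and for the combination against DMSO. With each array left out in turn the counts were 0 in every fit of the 6 comparisons of the design and of the average rapamycin effect, and 1 in every fit of the average JQ1 effect (2 with all arrays).

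Under the header's array names the JQ1 changes turned sign for ID1 (-1.05), ID2 (-1.04), ID3 (-1.37), BMP2 (0.0467) and BMPR2 (-0.68), the rapamycin changes for ID2 (0.29), SMAD6 (0.21), BMP2 (0.19) and BMPR2 (0.29), and the combination changes for ID1 (-0.91), ID2 (-0.24) and BMP2 (0.0324). The other changes kept their sign, among them ID3 in the combination (-1.27, limma adjusted p = 0.0505) and SMAD6 in the combination (-0.66, adjusted p = 0.539). The non-normalized signals under the value table's names turned only ID3 with JQ1 (-0.23). With 1 array left out, signs turned for ID3 with JQ1 (-0.17 to 0.22), BMP2 with JQ1 (-1.16 to 0.0807), BMP2 with rapamycin (-1.11 to 0.13), BMPR2 with rapamycin (-0.77 to 0.0635) and BMPR2 with the combination (-0.605 to 0.65), none of them called. BMP2 turned without DMSO replicate 2. The cause of these changes was not tested. Fewer arrays leave fewer degrees of freedom, which bears on the calls and not on the signs. Over the other settings ID1 with JQ1 lay between 1.42 and 1.58 and was called in 6 of 8 settings (adjusted p 0.0132 to 0.152), ID3 in the combination between -1.29 and -0.93 in 6 of 8 (0.00902 to 0.143), and SMAD6 in the combination between -1.54 and -1.33 in 6 of 8 (0.00975 to 0.156). BMP2 could not be tested where probes had to exceed the floor on all arrays.

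Signals near the floor, those of BMP2, the dimmer ID1 and SMAD7 probes, ID4 and BMP4, limit what can be said of these genes, since values at 20 have no order.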
